A study of Mus with 8 samples.

Results

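Integrins are the main receptors by which cells hold on to the extracellular matrix, and 10 genes for integrin subunits that bind collagen, laminin, fibronectin or vitronectin were examined in transplanted pancreatic tumours. The genes, Itga1, Itga2, Itga3, Itga5, Itga6, Itgav, Itgb1, Itgb3, Itgb5 and Itgb6, were chosen by name, and their probes were found through the RefSeq accession that the scanner files pair with each probe. The array carried 17 probes for them, of which 16 in all 10 genes passed the filter on dim signals, among 16068 genes tested in all. The tumours grew under the skin from cells of the mouse pancreatic cancer line Pan02, in B6 hosts of 2 kinds. Mutant hosts were Ext1 flox/flox; S100a4-Cre mice, in which alleles of the heparan sulfate polymerase gene Ext1 can be deleted by a recombinase under S100a4 control. Control hosts were wild type, so that they differed from Mutant hosts in the floxed alleles and in the recombinase together. There were 4 tumours from Mutant and 4 from Control hosts, taken 36 to 40 days after transplantation, and the age of the hosts is not given in the sources used here. Fibroblasts express S100a4, as do some immune and other stromal cells, and the transplanted cells carry no floxed allele by this design.

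An integrin is a heterodimer of an alpha and a beta chain, both of which span the membrane. The alpha chain largely sets which matrix protein is bound, and the tail of the beta chain recruits talin and kindlin, which switch the receptor on and tie it to actin. In solid tumours integrins are known to carry signals from the matrix for survival, spread and growth, and those with an Itgav chain can also release TGF-beta from its latent complex.

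Levels are log2 signals of a probe relative to the 75th percentile of its array, differences are Mutant minus Control on that log2 scale, and levels of different genes are not comparable, because each probe has its own brightness. Of 56605 probes, 61.5% to 67.2% on each array were well above its background, and none was saturated. Ext1 itself differed by 0.07 with a standard error of 0.36, S100a4 by 0.24 with a standard error of 0.30, and neither probe checks the deletion. The epithelial character of the tumours was partial, since Epcam stayed near background on all arrays and Cldn4 cleared it on 1 Mutant and 1 Control array, while 8 other markers of the list (such as Cdh1, Krt8, Krt18 and Krt19) were above it on all 8 arrays. All 15 skeletal muscle markers differed above 0, with a median of 2.88, and 10 of them reached an unadjusted p under 0.05 in limma, though none was called after adjustment. Their list level (the mean of centred log2 signals) was 2.01, 2.83, -0.84 and 1.54 in Mutant 1 to 4, against -0.45, 0.32, -1.78 and -3.63 in Control 1 to 4, and the part of muscle content in the subunit results was not tested. In whole tumours fewer cells of a type and less RNA per cell cannot be told apart.

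No integrin subunit differed between tumours of Mutant and Control hosts by more than the within-group SD of its own level. Limma with Benjamini-Hochberg adjustment over all genes called 0 of the 10 subunits, as it called 0% of 16068 genes (adjusted p = 1.00 for each subunit). At an unadjusted p under 0.05 it picked 0 of 10, against 2.91% of all genes. The levels of the groups overlapped for every subunit, while they did not overlap in 1.42% of all genes. Differences were above 0 for 6 subunits and below 0 for 4, beside 52.4% of all genes above 0 and 47.6% below, and their median was 0.09, beside 0.01 over all genes. A difference of at least 2-fold was seen for 1 subunit, Itga1, beside 2.79% of all genes, and it rested on a single probe in a single tumour as described further on.

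**Figure D1:**
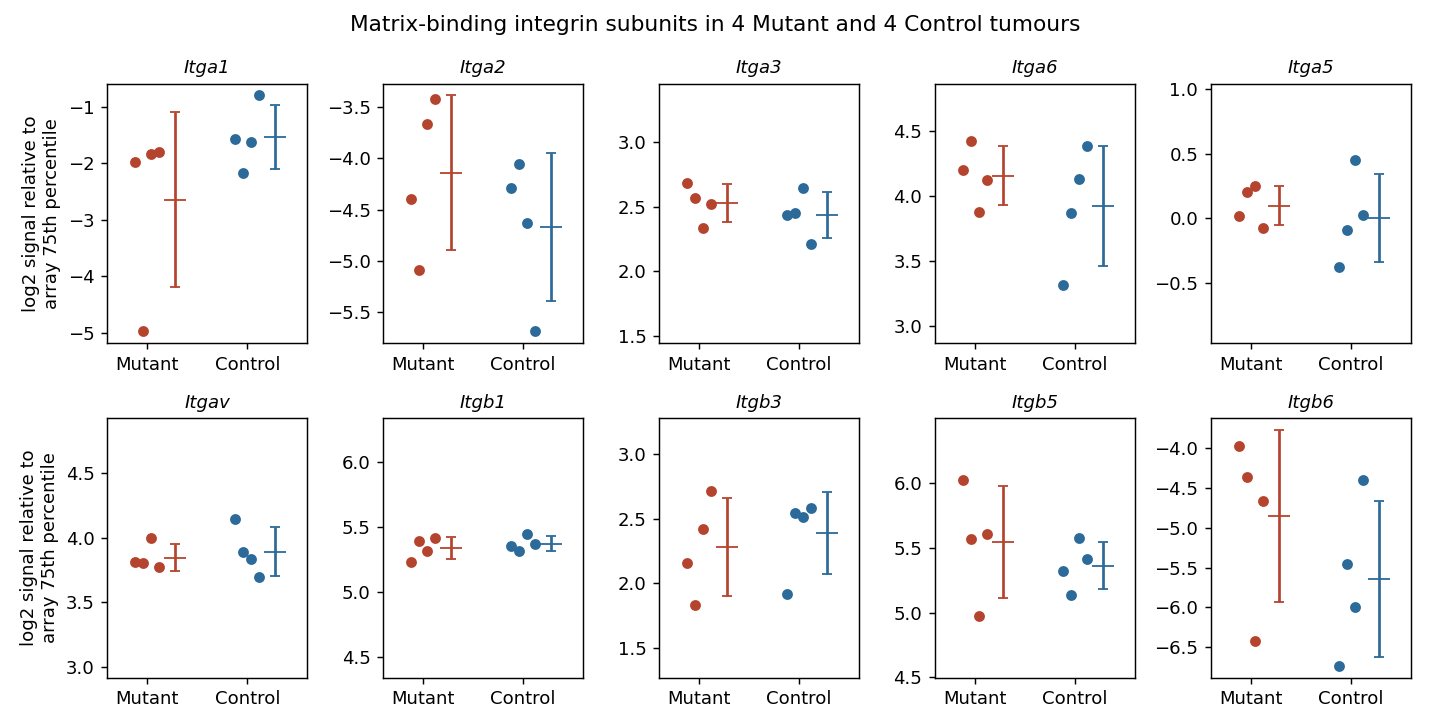
Log2 signal relative to the array's 75th percentile for the 10 integrin subunits in 4 Mutant tumours (red, left) and 4 Control tumours (blue, right) of each panel; points are tumours, in the order 1 to 4 from left to right, and bars show the mean and SD. Each panel has its own axis, at least 2 log2 units tall, and the points of both groups overlap in all 10 panels.

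Itgb1 is the common beta chain that pairs with most alpha chains of matrix receptors, and by its brighter probe it had the smallest within-group SD of the 10 subunits. That probe read 5.23, 5.39, 5.32 and 5.42 in Mutant 1 to 4, against 5.36, 5.32, 5.45 and 5.37 in Control 1 to 4. All 8 tumours lay within a narrow band, and the lowest was Mutant 1. The means were 5.34 ± 0.08 in Mutant and 5.37 ± 0.06 in Control tumours (SD, n = 4 each). The difference was -0.03, with a 95% interval of -0.25 to 0.18 (two-sided exact permutation p = 0.571). This interval spans 0.842-fold to 1.13-fold. The within-group SD of Itgb1, 0.071, was larger than that of only 0.896% of all genes tested, whose median SD was 0.268. A second, dimmer Itgb1 probe differed by -0.13, with 1.80, 2.24, 2.17 and 1.98 in Mutant tumours, against 1.88, 2.21, 2.21 and 2.43 in Control tumours. The SDs of this dimmer probe were 0.20 in Mutant and 0.23 in Control tumours. The sign of so small a difference was not stable, for it was 0.0019 without Mutant 1 and 0.02 after quantile normalization.

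Itga1 and Itga2 encode the alpha chains of the classical collagen receptors. For Itga1 the probe that stands for the gene read -1.98, -4.97, -1.83 and -1.80 in Mutant 1 to 4, against -1.56, -2.17, -1.63 and -0.80 in Control 1 to 4. Mutant 2 stood far below all other tumours, and the other 3 Mutant tumours lay within the Control range. The means were -2.64 ± 1.55 in Mutant and -1.54 ± 0.56 in Control tumours (SD, n = 4 each), which is 0.465-fold, with a difference of -1.11, a 95% interval of -2.79 to 0.58 and a two-sided exact permutation p of 0.2. Without Mutant 2 the difference was -0.33.

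The other Itga1 probe did not show the low value of Mutant 2. It read -3.47, -2.56, -3.53 and -3.33 in Mutant 1 to 4, against -4.06, -3.70, -3.74 and -1.87 in Control 1 to 4. By this probe Mutant 2 was the highest Mutant tumour, Control 4 was higher still, and the difference was 0.12 with a standard error of 0.48. Before scaling, the spot of the brighter probe gave a processed signal of 21.4 on the Mutant 2 array and of 181 to 206 on the other Mutant arrays, against 165 to 331 on the Control arrays. The spot carried no outlier flag and counted as well above background, with a median pixel signal of 54 over a local background of 21. A gap of this size, 2.80 between the lowest tumour and the next, occurred in 34 of 32834 probes that were above background on all 8 arrays (0.104%), a count made after the Itga1 values were seen. The tumours that were high by the other probe, Mutant 2 and Control 4, also had the highest level of 11 fibroblast markers, which was 0.40, 0.59, -0.93 and -0.27 in Mutant 1 to 4, against -0.12, -0.51, -0.85 and 1.68 in Control 1 to 4. The part of fibroblast content in the Itga1 signal was not tested.

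**Figure D2:**
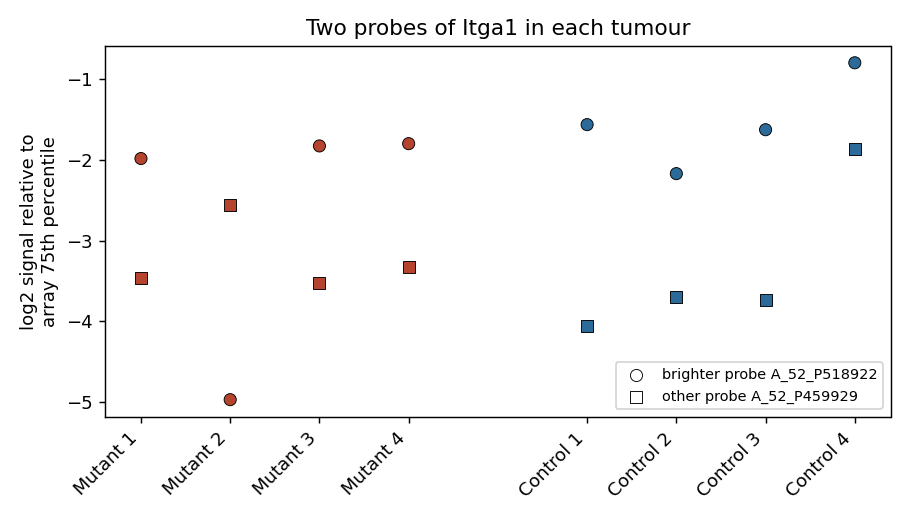
Log2 signal relative to the array's 75th percentile of both Itga1 probes (circles, the brighter probe; squares, the other probe) in each Mutant (red) and Control (blue) tumour. The probes are read against their own values in other tumours, and in Mutant 2 the brighter probe is at -4.97, its lowest value, while the other probe is at -2.56.

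Itga2 read -4.39, -5.09, -3.66 and -3.42 in Mutant 1 to 4, against -4.29, -4.05, -4.64 and -5.69 in Control 1 to 4. Mutant 3 and Mutant 4 lay above every Control tumour, and Control 4 was the lowest of all. The mean was -4.14 ± 0.75 in Mutant and -4.67 ± 0.72 in Control tumours (SD, n = 4 each), 1.44-fold, and the 95% interval of the difference ran from -0.55 to 1.60 (two-sided exact permutation p = 0.371). Itga2 was dim, though well above background on all 8 arrays. The difference of 0.53 was 0.19 without Control 4 and 0.84 without Mutant 2, and 0.17 after background correction by normexp. Keratinocyte markers, which stand for a cell type known to carry this collagen receptor, had their highest level in Mutant 3, at 2.07, with -0.43, 0.21 and -0.57 in Mutant 1, 2 and 4, against -0.42, -0.42, -0.56 and 0.12 in Control 1 to 4. In that list Krt1, Dsg3 and Ivl were not above background on any array, and a role of skin cells in the Itga2 level was not tested.

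Itga3 and Itga6 encode alpha chains of laminin receptors, with which epithelial cells sit on a basement membrane. Itga3 was at 2.68, 2.57, 2.33 and 2.52 in Mutant 1 to 4, against 2.44, 2.45, 2.64 and 2.21 in Control 1 to 4, with no tumour apart from the rest. Its difference was 0.09 with a 95% interval of -0.21 to 0.39 (two-sided exact permutation p = 0.429). A dimmer Itga3 probe read -2.41, -2.54, -2.48 and -2.63 in Mutant tumours, against -2.25, -2.71, -2.20 and -2.49 in Control tumours, and its difference had the opposite sign, -0.11. Both Itga3 differences were smaller than the SD of the Control tumours, but that of the dimmer probe was larger than its SD in Mutant tumours, 0.095.

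Itga6 pairs with Itgb1 or, in hemidesmosomes, with Itgb4. It read 4.20, 4.42, 3.88 and 4.12 in Mutant 1 to 4, against 3.31, 3.87, 4.13 and 4.39 in Control 1 to 4. Control 1 was the lowest tumour and Mutant 2 the highest, and 2 Control tumours, Control 3 and Control 4, fell into the Mutant range. The difference was 0.23, or 1.17-fold (95% interval -0.32 to 0.79, two-sided exact permutation p = 0.4), and it was 0.03 without Control 1. A second bright Itga6 probe differed by 0.24 and again had its lowest level, 2.30, in Control 1. Another probe, assigned to another Itga6 transcript, was dim and differed by -0.08, with its lowest level, -5.39, in Control 1 too. Itgb4, the other partner, belongs to the fixed list of further integrin subunits and differed by -0.11.

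Itga5 and Itgav encode the alpha chains of receptors that bind fibronectin and vitronectin through the RGD motif. Itga5 was at 0.02, 0.20, 0.25 and -0.07 in Mutant 1 to 4, against -0.37, -0.09, 0.45 and 0.03 in Control 1 to 4. The Mutant tumours lay inside the Control range. The Itga5 difference was 0.09 (95% interval -0.33 to 0.52, two-sided exact permutation p = 0.629), and it was -0.03 without Control 1.

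Itgav read 3.81, 3.81, 4.00 and 3.77 in Mutant 1 to 4, against 4.14, 3.89, 3.84 and 3.70 in Control 1 to 4. Control tumours bracketed all Mutant tumours here as well. The Itgav difference was -0.05 with a 95% interval of -0.33 to 0.24 (two-sided exact permutation p = 0.657), which spans 0.794-fold to 1.18-fold, and it was 0.04 without Control 1. Fn1, which encodes their ligand fibronectin, differed by 0.05.

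Itgb3, Itgb5 and Itgb6 are beta chains that pair with Itgav. Itgb3, which platelets also use with Itga2b as their fibrinogen receptor, was at 2.15, 1.83, 2.42 and 2.71 in Mutant 1 to 4, against 1.91, 2.54, 2.52 and 2.58 in Control 1 to 4. Control 1 was low and the other 3 Control tumours lay close together. The Itgb3 difference was -0.11 (95% interval -0.64 to 0.42, two-sided exact permutation p = 0.714). It was -0.27 without Control 1 and 0.04 without Mutant 2, and a dimmer probe gave 0.01. Itga2b differed by -0.17, and the level of 7 tested platelet and megakaryocyte markers was 0.06, 0.40, 0.12 and -0.09 in Mutant 1 to 4, against -0.29, 0.02, -1.08 and 0.86 in Control 1 to 4. In that list Gp5 was not above background on any array and Gp6 on 1 Control array. The part of platelet content in the Itgb3 signal was not tested.

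Itgb5, a vitronectin receptor chain found in many cell types, read 6.02, 5.57, 4.97 and 5.61 in Mutant 1 to 4, against 5.32, 5.14, 5.57 and 5.41 in Control 1 to 4. The highest and the lowest tumour were both Mutant. The Itgb5 difference was 0.18, or 1.13-fold (95% interval -0.33 to 0.69, two-sided exact permutation p = 0.457), and 0.02 without Mutant 1.

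Itgb6 is known as an epithelial chain, and the receptor it forms with Itgav activates latent TGF-beta. Its signal was weak, well above background on 3 Mutant arrays and 2 Control arrays. It read -3.98, -4.36, -6.42 and -4.67 in Mutant 1 to 4, against -6.73, -5.46, -5.99 and -4.40 in Control 1 to 4. Mutant 1, 2 and 4 and Control 4 formed the upper end, and Mutant 3 lay with the low Control tumours. The means were -4.86 ± 1.08 in Mutant and -5.64 ± 0.98 in Control tumours (SD, n = 4 each), a 1.73-fold difference with a 95% interval of -0.71 to 2.28 on the log2 scale (two-sided exact permutation p = 0.314). Signals near background enter this fold. Leaving out Control 1 gave 0.43 in place of 0.79 and leaving out Mutant 1 gave 0.50, while the difference was 1.20 with Control 4 left out, 1.31 with Mutant 3 left out and 0.14 after normexp correction. The second Itgb6 probe was not above background on any array. The epithelial marker level was -0.05, -0.25, 0.08 and -0.52 in Mutant 1 to 4, against 0.03, -0.21, 0.15 and 0.77 in Control 1 to 4. The part of epithelial content in the Itgb6 signal was not tested.

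**Figure D3:**
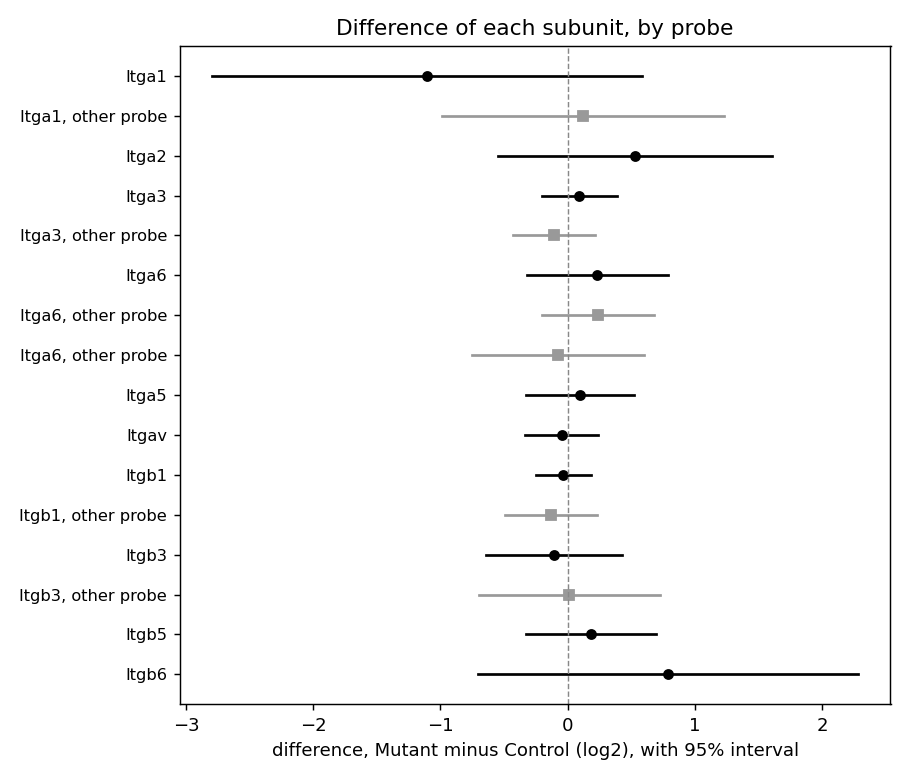
Difference between Mutant and Control tumours (log2, Mutant minus Control) with its 95% interval for the 16 probes past the filter; black circles are the probes that stand for a gene and grey squares are its other probes. Every interval includes 0, and the widest are those of Itga1 and Itgb6.

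All arrays lay on 1 slide in 2 rows, each with 2 Mutant and 2 Control tumours, and the differences within a row were often of opposite sign. This was so for 7 of 10 subunits, but the share over all genes was not computed, so the count cannot be read as a trait of the subunits. In the first row Itgb6 differed by 1.92, Itga6 by 0.72, Itgb5 by 0.57, Itga5 by 0.34, Itgav by -0.21, Itgb3 by -0.24 and Itga2 by -0.57. In the second row the same subunits differed by -0.35 for Itgb6, -0.26 for Itga6, -0.20 for Itgb5, -0.15 for Itga5, 0.12 for Itgav, 0.02 for Itgb3 and 1.62 for Itga2. By its brighter probe Itga1 was lower in Mutant tumours in both rows, by -1.61 and -0.60. The first row holds Mutant 2, whose value of -4.97 enters the -1.61. The other Itga1 probe went the other way there, at -3.47 and -2.56 in Mutant 1 and 2, against -4.06 and -3.70 in Control 1 and 2. In the second row it read -3.53 and -3.33 in Mutant 3 and 4, against -3.74 and -1.87 in Control 3 and 4. Itga3 differed by 0.18 and 0.0013. Itgb1 differed by -0.03 and -0.04.

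Among the subunits, Itga6 and Itgav varied in opposite ways across the tumours. Control 1 combined the lowest Itga6 with the highest Itgav, and Control 4 the lowest Itgav with nearly the highest Itga6. Over 8 tumours Pearson's r was -0.93 (exact permutation p = 0.00171, adjusted p = 0.0770) and Spearman's rho was -0.79 (exact permutation p = 0.0279, adjusted p = 0.414), both two-sided and adjusted over the 45 pairs of subunits. Without Control 1 and Mutant 2, the tumours farthest from the median of Itga6, r was -0.90. Itgav and Itgb6, which form a receptor together, were also opposed, with r = -0.85 (exact permutation p = 0.00345, adjusted p = 0.0776) and rho = -0.76 (exact permutation p = 0.0368, adjusted p = 0.414), and r was -0.56 without Control 1 and Mutant 3. Itga6 and Itgb6 went together, with r = 0.82 (exact permutation p = 0.00697, adjusted p = 0.105) and rho = 0.81 (exact permutation p = 0.0218, adjusted p = 0.414), and r was 0.71 without Control 1 and Mutant 2. Itgb6 was well above background on 3 Mutant and 2 Control arrays only, so signals near background enter both of these correlations with Itgb6. None of the 45 pairs passed after adjustment, and 22 had r above 0.

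**Figure D4:**
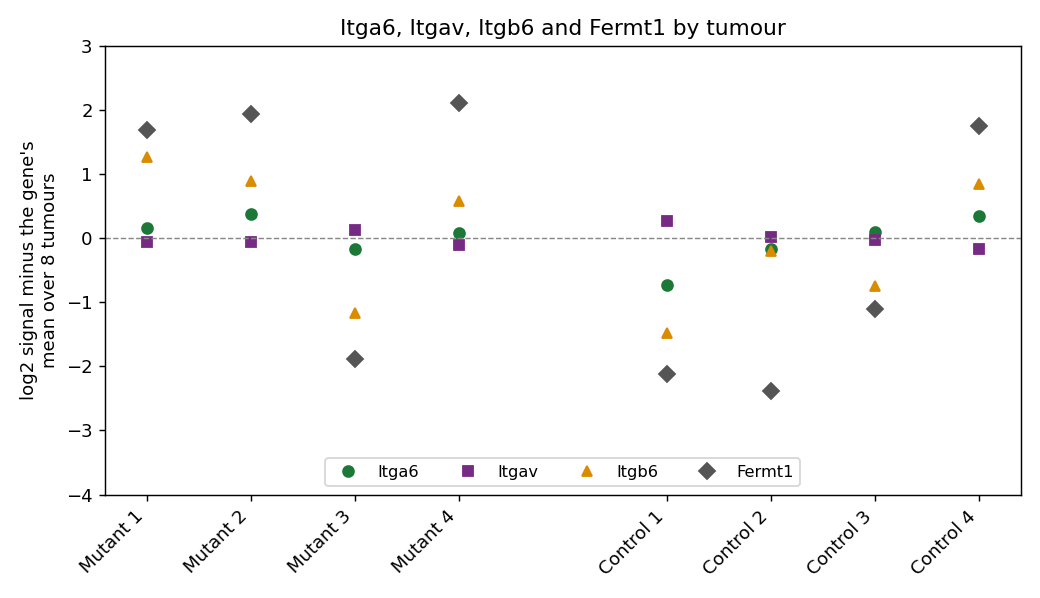
Log2 signal of Itga6, Itgav, Itgb6 and the kindlin gene Fermt1, each minus its mean over the 8 tumours, in Mutant 1 to 4 (left) and Control 1 to 4 (right). Itgb6 and Fermt1 are high in Mutant 1, 2 and 4 and in Control 4 and below their mean in the other 4 tumours, while Itgav moves little and in the opposite sense to Itga6. Itgb6 was well above background on 3 Mutant and 2 Control arrays, and Fermt1 on 3 Mutant arrays and 1 Control array. The macrophage marker level, not drawn here, was also highest in Mutant 1, 2 and 4 and in Control 4.

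For each subunit above background on all 8 arrays, the genes of most similar pattern over the 8 tumours were sought by Pearson's r among 13610 genes, as a description only. Itga6 was most like H2-M3 (r = 0.99) and Kyat3 (0.98), Itgav most like Emc2 (0.98) and Wdr83 (0.97), and Itga5 most like Cd300e (0.99) and Sf3a3 (0.98). Itga2 was closest to Zfp617 (0.99) and Adgrb2 (0.97), and Itga3 to Zfp251 (0.97) and Mmd (0.97). Itga1 was closest to Wdr91 (0.98) and Tmem174 (0.97) by the probe in which Mutant 2 stood apart. For the beta chains the closest genes were Kbtbd2 (0.92) and Copg1 (0.89) for Itgb1, Rhd (0.93) and Rnf7 (0.90) for Itgb3, and Mrpl35 (0.94) and Cenpx (0.94) for Itgb5. With so many genes and 8 tumours, high values of r arise for any gene, and nothing is drawn from them.

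The wider integrin family held no called gene either. Of 15 other subunits tested, 9 differed above 0 and 6 below, with a median of 0.04, and limma called 0 of them, with 0 at an unadjusted p under 0.05. That median was -0.07 without Control 1 and also without Mutant 2, 0.20 without Control 4, 0.19 without Mutant 3 and 0.42 with array weights. The largest difference was that of Itgae, whose product pairs with Itgb7 on lymphocytes and binds E-cadherin. Itgae read -0.39, -1.43, -3.06 and -1.24 in Mutant 1 to 4, against -2.32, -3.32, -2.89 and -1.02 in Control 1 to 4, with a difference of 0.86 (95% interval -0.68 to 2.39). Mutant 3 and Control 4 again stood with the tumours of the other host. The collagen receptor chain Itga10 differed by 0.63 and Itga9 by 0.26. Itga11, a collagen receptor chain of fibroblasts, differed by 0.02 between the groups but ranged widely within them, with 0.08, 2.55, -0.04 and -0.59 in Mutant 1 to 4, against -1.17, 1.25, -1.87 and 3.70 in Control 1 to 4. Its highest tumours, Control 4 and Mutant 2, were those with the highest fibroblast marker levels. Control 2 came next for Itga11, at 1.25, but its fibroblast marker level was low, at -0.51. The part of fibroblast content in the Itga11 signal was not tested.

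Limma called 0 of 25 adaptor and focal adhesion genes, the proteins that tie integrins to actin, with 11 above 0, 14 below and a median of -0.02, and 1 reached an unadjusted p under 0.05. The median was 0.02 without Mutant 4, -0.05 without Control 3 and -0.04 without Control 4. That gene was Fermt2, the widely expressed kindlin, at 3.06, 3.16, 3.40 and 3.20 in Mutant 1 to 4, against 3.56, 3.59, 3.55 and 3.27 in Control 1 to 4. Mutant 3 and Control 4 were the tumours that made the groups overlap. The Fermt2 difference was -0.29 with a standard error of 0.12, 0.821-fold (limma unadjusted p = 0.0474, adjusted p = 1.00; two-sided exact permutation p = 0.0571). Fermt1, the epithelial kindlin, read -4.03, -3.77, -7.60 and -3.60 in Mutant 1 to 4, against -7.84, -8.10, -6.82 and -3.97 in Control 1 to 4. It was well above background in the 4 bright tumours only (3 Mutant, 1 Control), and these were the tumours with the highest Itgb6. The same 4 tumours had the highest Itgae and the highest macrophage marker level. The split was thus not particular to Fermt1 and Itgb6. The macrophage level was 0.51, 0.23, -0.67 and 0.13 in Mutant 1 to 4, against -0.16, -0.31, -0.35 and 0.62 in Control 1 to 4. The part of macrophage content in these signals was not tested. The Fermt1 difference was 1.93 with a standard error of 1.18 (limma adjusted p = 1.00). Bcar1, a scaffold phosphorylated in focal adhesions, differed by -0.17, and the talin gene Tln1 by 0.02.

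Among 9 tested genes that inhibit integrins or carry them through endosomes, 3 differed above 0 and 6 below, with a median of -0.05, and none passed or reached an unadjusted p under 0.05. With 1 tumour left out, their median ran from -0.09 without Control 3 to -0.0050 without Mutant 3, and it was -0.00070 with array weights. Itgb1bp1, whose product binds the tail of the Itgb1 chain and keeps it inactive, differed by -0.31 with a standard error of 0.19. Eps8, an actin regulator, also differed by -0.31, and the recycling adaptor Rab11fip1 by -0.21. Of 12 membrane partners of integrins 9 lay below 0, with a median of -0.08, and limma called 0, with 0 at an unadjusted p under 0.05. Their median was 0.02 without Control 3, -0.14 without Control 1 and -0.20 without Mutant 3. The tetraspanins Cd63 and Cd9 differed by -0.16 each and the integrin-associated protein Cd47 by -0.15.

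Genes for integrin ligands in the matrix differed in both directions. Of 29 tested, 16 were above 0 and 13 below, with a median of 0.02, and limma called 0, with 0 at an unadjusted p under 0.05. The median of the ligand genes was -0.10 without Control 1 and also without Mutant 2, -0.05 without Control 3 and 0.11 without Mutant 4. Npnt, whose product nephronectin is a ligand of the receptor formed with Itga8, differed by -0.62 (0.649-fold, two-sided exact permutation p = 0.2). Tgfb3, a TGF-beta whose latent form carries an RGD motif, differed by 0.43, and Tgfb1 by 0.02. The vitronectin gene Vtn was above background on 2 Mutant arrays and 1 Control array and was not tested.

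**Figure D5:**
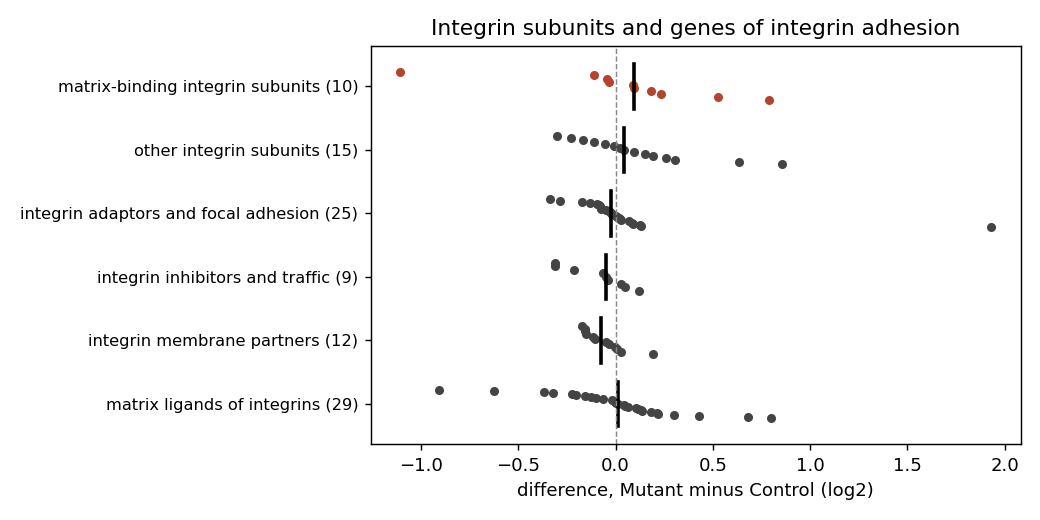
Difference between Mutant and Control tumours (log2, Mutant minus Control) of each tested gene in 6 lists, with the number of genes in brackets and a vertical bar at the median. The medians lie between -0.08 and 0.09, and the points farthest from 0 are Fermt1 at 1.93 and Itga1 at -1.11.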

How the data were processed

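Total RNA of 8 whole tumours was measured on Agilent mouse arrays with Cy3, 1 array a tumour. Agilent Feature Extraction 10.7.3.1 made the intensity values, per the file headers (the submitters' processing notes name version 9.1). The processed signal is background-subtracted and detrended within the array, and arrays were not scaled to each other. Flags deposited beside it are of no unit (other). Intensity on a linear scale also fills the value table that the authors deposited, equal to the mean processed signal within 0.01% for 99.5% of probes, with column medians of 52.8 to 61.8. No ratio or direction is involved.

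Outlier spots (66 to 117 an array) and control spots were left out. Processed signals were put on a log2 scale and set relative to each array's 75th percentile (575.9 to 740.7). A probe was kept if well above background on 4 or more of 8 arrays, and the probe of highest mean stood for a gene. Unversioned RefSeq accessions were looked up in a gene table of GRCm38.p6, giving 1 gene for 32994 of 56605 probes, several for 0 and none for 23611. The array names another build, so no coordinates are given.

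Limma 3.58.1 in R 4.3.3 was fitted over all genes with the group as the only term. Intervals come from limma. Single values were compared by two-sided exact permutation over 70 arrangements, which allow a p of 0.0286 or more. Arrays have no read depth, so the number of tumours limits precision. The design text gives 4 mice a group, and tumours were treated as independent. In 10 simulated draws of 200 changed genes among 16068, 51.8% of 2-fold, 80.3% of 4-fold and 88.7% of 8-fold changes between Mutant and Control were found, and 5.7% of calls were false. Noise in the draws was normal and independent between genes, so variation that tumours share across genes was absent. The shares found are averages over all genes and do not give the chance of a call for a single subunit. Itga1 and Itgb6 had a within-group SD above that of 92.9% and 91.2% of all genes.

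Members, lists and tests were chosen with earlier results of these data known. Named genes are the members, the 3 of smallest p in each of 5 adhesion lists, the 2 genes most like each member, Ext1 and S100a4, and 1 gene of the ligand list that met this rule is not reported here. Genes named beyond these (Itga2b, Itga11, Itgb4, Fn1, Tgfb1, Tln1, Vtn and the markers Epcam, Cldn4, Cdh1, Krt8, Krt18, Krt19, Krt1, Dsg3, Ivl, Gp5 and Gp6) were chosen after their values were seen. A further 10 marker lists stand for other cell types. Levels not described above were, as Mutant against Control means, 0.08 and -0.08 for endothelial, 0.30 and -0.30 for pericyte and smooth muscle, 0.15 and -0.15 for leukocyte and 0.53 and -0.53 for adipocyte markers. The macrophage level, given above by tumour, had means of 0.05 and -0.05. Python 3.11.15 with pandas 2.3.3 handled tables. Alternatives covered background correction, normalization, filters on dim probes, the probe taken, the value table, array weights, a variance trend, blocks for slide row or replicate number, and the omission of each tumour. Mean spot signals were not used here, so normexp (offset 50) ran on median spot and background signals.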

Additional observations from a re-analysis of the deposited data

Results flagged for a closer look

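In groups of 4 tumours, 10 of 96 sets of values examined had a tumour whose gap to the next, as a share of the group's range, exceeded Dixon's 95% critical value, where chance gives about 1 in 20 for independent normal values. The sets came from the same 8 tumours and included several probes of a gene and list levels, so they were not independent. The share over all genes is not given, so the count cannot be read as an excess. Itga1 did so by its brighter probe, with Mutant 2 lowest at -4.97, and by its other probe, with Control 4 highest at -1.87. Itgb3 had Control 1 lowest among Control tumours, at 1.91. Among Mutant tumours, Fermt1 was lowest in Mutant 3, at -7.60, and S100a4 in Mutant 4, at 7.90. Among Control tumours, Fermt2 was lowest in Control 4, at 3.27, and Rab11fip1 in Control 2, at -2.80. The level of integrin membrane partners was highest in Mutant 3 among Mutant tumours, at 0.19, and in Control 3 among Control tumours, at 0.42. The level of adaptor and focal adhesion genes was highest in Control 4, at 0.15.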

How the results depend on the processing

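No subunit and no other gene was called under the main setting, any of 20 alternative fits or with every probe tested by itself. Of 204 repeats of the subunits' differences, 193 kept their direction and 11 turned. Many of these repeats could not move a difference. The variance trend and the blocks, which are balanced between groups, leave it as it is, and filters that keep the same probe return the same value. The count of 193 is therefore no measure of how stable the directions were. By another probe of the gene, Itga1 was at 0.12, Itga3 at -0.11, Itga6 at -0.078 and Itgb3 at 0.0099, and with the mean of a gene's probes Itga3 was at -0.0070. With a tumour left out, Itga5 ranged from -0.031 (without Control 1) to 0.24, Itgav from -0.11 to 0.038 (without Control 1), Itgb1 from -0.061 to 0.0019 (without Mutant 1) and Itgb3 from -0.27 to 0.040 (without Mutant 2). Itgb1 was at 0.023 with quantile normalization and Itgb3 at 0.062 with array weights. The directions of Itga2, Itgb5 and Itgb6 held in every repeat run, over 0.17 to 0.84, 0.02 to 0.37 and 0.14 to 1.50, and Itgb6 had no value under the 2 stricter filters on dim probes. The cause of these shifts was not tested. The median over the subunits ranged from 0.03 to 0.20. Genes at an unadjusted p under 0.05 numbered 467, but 1280 with array weights, 305 without Control 1, 972 without Control 2, 195 without Mutant 1 and 257 without Mutant 4. Replicate numbers are shared between groups, and deviations of same-numbered tumours from their group means correlated at 0.078, -0.314, 0.051 and -0.314. Deviations from a mean of 4 tumours are not independent, so these values cannot settle whether tumours were paired. With the replicate block 371 genes had an unadjusted p under 0.05, 0 were called, and no call changed. Dim signals limit Itgb6, which was above background on 3 Mutant and 2 Control arrays.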
